A study of Mus musculus with 36 samples.

Results

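The 10 genes described here are the listed mouse genes of iron uptake (Tfrc, Steap3, Slc11a2), storage (Fth1, Ftl1), delivery to and release from the store (Pcbp1, Ncoa4), export (Slc40a1) and sensing (Aco1, Ireb2). They were chosen by name, though with earlier results of these data known, and are 10 of the 49315 genes in the count tables. The study grew C2C12 cells, an established mouse myoblast line, in closed experiment units on the International Space Station, and later repeated the run on the ground in the same hardware. Each of 3 regimes (space with gravity absent, space with gravity, and land) was run without nanoceria (classes A, C and E) and with nanoceria at 100 µg/ml (classes B, D and F). Nanoceria are cerium oxide nanoparticles, here coated with serum, which are studied for their redox activity. Each of the 6 classes has 3 libraries of polyadenylated RNA, for 18 in all, from 3 experiment units per the labels, and no genotype or other agent differs between them. All cells are of 1 line. Land was also the later run, so regime and run cannot be told apart, and p-values measure the spread between units of 1 flight and 1 ground run.

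Mammalian cells take up iron bound to transferrin through the transferrin receptor, free and reduce it in endosomes, and put what they do not use into ferritin, a shell of heavy and light subunits. Iron leaves the cell through ferroportin, the product of Slc40a1. The balance is set largely after transcription: the iron regulatory proteins, products of Aco1 and Ireb2, bind a hairpin called the iron-responsive element when iron is short, which blocks translation where the hairpin lies before the coding sequence (ferritins, ferroportin) and protects the messenger where it lies behind it (Tfrc). Muscle cells need iron for respiration and heme proteins. The libraries measured messenger levels and not translation or protein.

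The hairpins themselves are shown because those found lie before the coding sequence in some members and behind it in another. In the GRCm38 genome, annotated untranslated regions were searched on the coding strand for a 27-base stretch with an unpaired C at its sixth base, the loop CAGTGN at bases 12 to 17, all 5 upper stem pairs and at least 4 of 5 lower stem pairs, with G-T pairs allowed. Capitals mark the loop. Within the 5′ untranslated region, 3 members held a match.
Fth1, chr19:9982733-9982759, plus strand: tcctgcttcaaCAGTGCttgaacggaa
Ftl1, chr7:45459780-45459806, minus strand: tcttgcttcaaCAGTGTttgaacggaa
Slc40a1, chr1:45925466-45925492, minus strand: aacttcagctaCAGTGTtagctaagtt
In the 3′ untranslated region of Tfrc there were 4 matches, all on the plus strand.
Tfrc, chr16:32631220-32631246: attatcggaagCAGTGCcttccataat
Tfrc, chr16:32631599-32631625: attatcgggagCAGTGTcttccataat
Tfrc, chr16:32631664-32631690: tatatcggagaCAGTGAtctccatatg
Tfrc, chr16:32631711-32631737: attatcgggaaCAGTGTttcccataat
Matches of this kind were rare: 6 of 20899 genes with an annotated 5′ untranslated region held one (0.0287%), and 11 of 21022 with a 3′ region (0.0523%). The letters CNNNNNCAGTGN without the stem were found in 12.3% and 35.9% of those genes. A match is a description of the letters and not a measurement of binding, and the other 6 members had no match under this rule, which says nothing of other forms of the hairpin.

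Depth and composition limited what could be read for the scarcer members. Of the 18 libraries, 17 held between 2986628 and 11378178 counts, while the smallest, space with gravity and nanoceria library 3, held 23858. In that library 3 counts correspond to 35.7 CPM (counts scaled to 1e6 of effective library size by the trimmed-mean method, TMM), against 0.193 to 1.11 CPM in the others, and 7 of the 10 members had no count in it. Levels below therefore give it apart, and the fits include it unless stated. The 6 most abundant entries (Lars2, Gm23935, Gm15564, Gm24270, Gm24187 and Gm25911) took 23.8% to 70.3% of the counts in space and 49.6% to 76.3% on land. Of the remaining counts, mitochondrially encoded genes held 0.107% to 0.787% in space and 0.174% to 1.45% on land. Among myoblast markers, Myf5 (97 to 1938 counts) and Des (145 to 1635) were present in each of the 17 larger libraries, whereas Myod1 was at 0 in 8 of them and never above 34 counts. Erythroid Alas2 and Hbb-bt and macrophage Adgre1 and Cd163 were at 0 in all 17, while erythroid Hba-a1 (at most 9 counts) and macrophage Csf1r (at most 5) were at 0 in 5 each, and Cd68 ranged from 4 to 351 counts. The summed myoblast markers ran from 53.5 to 229 CPM in space and 99.0 to 525 CPM on land. Summed markers of differentiated muscle ran from 0.659 to 17.1 CPM except for land without nanoceria library 1 (70.2 CPM), macrophage markers from 1.31 to 41.8 CPM, erythroid markers from 0 to 3.33 CPM, endothelial markers from 0 to 2.32 CPM and epithelial markers from 0 to 0.2 CPM.

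Per kilobase of gene length, the storage genes stood far above the rest. Over the 17 larger libraries the median level was 790 CPM per kilobase for Fth1 and 388 for Ftl1. Pcbp1 followed at 28.0 and Tfrc at 20.7 CPM per kilobase. The others were low: Slc11a2 at 2.62, Aco1 at 1.25, Ireb2 at 0.908, Ncoa4 at 0.592, Steap3 at 0.460 and Slc40a1 at 0.172 CPM per kilobase. The ranges of Fth1 (421 to 1863) and Ftl1 (206 to 975) overlapped, and so did those of each pair of neighbours from Pcbp1 (8.44 to 63.2) downwards, so only the step from Ftl1 to Pcbp1 was larger than the spread between libraries. Tfrc and Slc11a2 varied most among the members never at 0, by 37.4-fold and 29.6-fold between their lowest and highest library, against 4.42-fold for Fth1 and 4.72-fold for Ftl1. All 10 members passed the filter on low counts, although Slc40a1 had under 10 counts in 10 of the 18 libraries, Steap3 in 6 and Ncoa4 in 5.

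**Figure D1:**
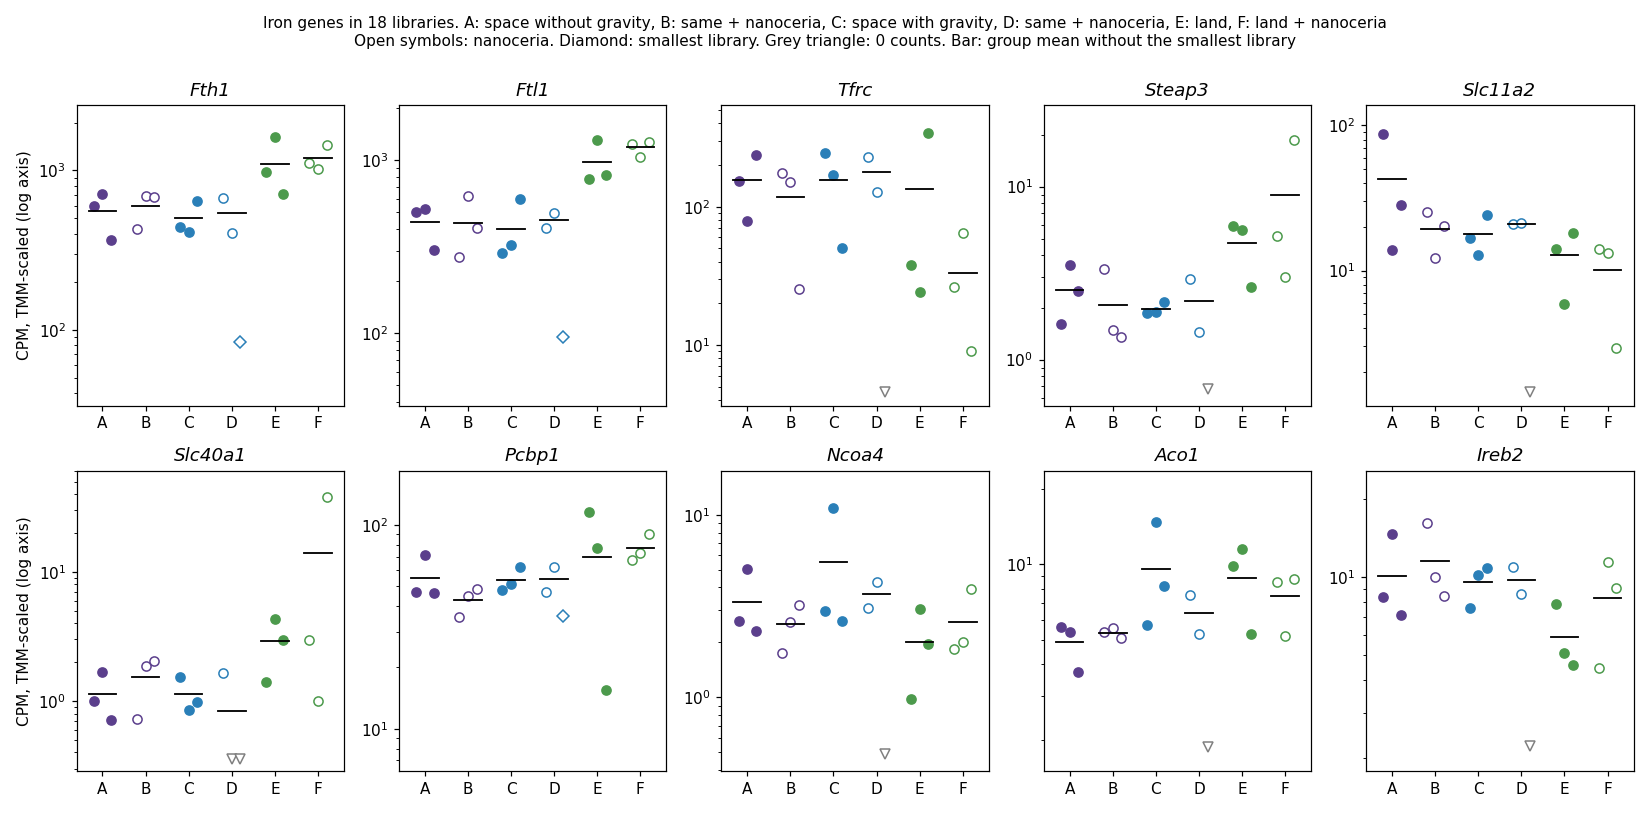
Level of each iron gene in each of the 18 libraries, in CPM on a log axis, by class A to F; filled points are cultures without and open points cultures with nanoceria, the diamond is the smallest library, grey triangles mark libraries with 0 counts and bars are class means without the smallest library. Both ferritin genes sit higher in the land classes E and F, and the high Slc40a1 and Steap3 point in class F is 1 library.

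Both ferritin genes were lower in space than on land, Ftl1 in every library and Fth1 with 1 land library overlapping. Ftl1, the light subunit that promotes formation of the iron core, is ENSMUSG00000050708 (chr7:45457944-45459884, minus strand). Its level was 504, 520.3 and 301 CPM in space without gravity, and 276, 623 and 406 CPM there with nanoceria. With gravity it was 289.5, 324 and 594 CPM, and with nanoceria 408 and 493 CPM, with 95.3 CPM (8 counts) in the smallest library. On land it was 784, 1306 and 823 CPM, and with nanoceria 1249, 1044 and 1267 CPM. All 6 land libraries lay above all 12 space libraries. The land class means were 971 ± 291 CPM without and 1187 ± 124 CPM with nanoceria (SD, n = 3 each) and did not differ beyond their spread. Neither did the 4 space means (402 to 450 CPM without the smallest library). Scaled instead to counts outside the 6 most abundant entries, without TMM, the means of classes A to D were 1135, 850, 711 and 674 CPM. Those of land were then 2775 CPM without and 2256 CPM with nanoceria. These means include the smallest library, and their spread was not computed. Averaged over both space regimes against land, Ftl1 fell by 1.42 ± 0.36 on the log2 scale (SE; 2.67-fold lower; edgeR adjusted p = 0.0140).

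Fth1, the heavy subunit whose ferroxidase centre oxidises iron for storage, is ENSMUSG00000024661 (chr19:9982703-9985092, plus strand). Its level was 602, 710.4 and 365 CPM in space without gravity, and 429, 690.5 and 684 CPM there with nanoceria. With gravity it was 443, 413 and 647 CPM, and with nanoceria 676 and 404 CPM, with 83.4 CPM (7 counts) in the smallest library. On land it was 972, 1613 and 707 CPM, and with nanoceria 1117, 1022 and 1453 CPM. The lowest land library (707 CPM) lay just below the highest space library (710.4 CPM), and the other 5 land libraries lay above every space library. Averaged over both space regimes against land, Fth1 fell by 1.18 ± 0.38 on the log2 scale (2.26-fold lower; edgeR adjusted p = 0.0378).

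These calls differ in how firmly they rest on single libraries. Leaving out each of the 18 libraries in turn, Ftl1 was called in all 18 fits (−1.51 to −1.27 on the log2 scale), whereas Fth1 kept its direction in all (−1.34 to −0.97) and was called in 6: without library 2 of either class without gravity, libraries 1 and 3 of space with gravity and nanoceria, and library 3 of the classes without nanoceria in space with gravity and on land. With the log2 share of the 6 most abundant entries as a covariate, Ftl1 was −0.58 (edgeR adjusted p = 0.622) and Fth1 −0.43 (edgeR adjusted p = 0.793), with only 4 of 11558 genes called. With no filter on low counts the adjusted p was 0.0639 for Ftl1 and 0.180 for Fth1. In bulk RNA, fewer transcripts per cell and fewer cells that make them cannot be told apart. The mitochondrial share and the marker sums given above overlapped between space and land. All 4 myoblast markers tested had lower fitted values in space (median −0.73, against −0.03 for all genes), none called and 1 at an unadjusted p under 0.05 (Myod1, −2.89 ± 1.15, edgeR adjusted p = 0.0881). Of the differentiated muscle markers tested, Acta1 was −1.42 ± 0.56 (edgeR adjusted p = 0.0876) and Tnnt3 1.37 ± 1.23. The part of these shares and markers in the ferritin result was not tested.

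Ferritin has processed pseudogenes whose sequence is close to that of the parents, so part of their counts can come from either. Counts of the Ftl1 pseudogenes amounted to 3.87% to 5.67% of the Ftl1 count in the 17 larger libraries, and those of the Fth1 pseudogenes to 0.0448% to 0.398% of the Fth1 count. In the smallest library they were 2 counts against 8 for Ftl1 and 0 against 7 for Fth1. Ftl1-ps1 fell with its parent, by 1.35 ± 0.29 in both space regimes against land (edgeR adjusted p = 0.00592). Adding the pseudogene counts to the parents left Ftl1 at −1.41 (edgeR adjusted p = 0.0129) and Fth1 at −1.18 (edgeR adjusted p = 0.0378). Ftl1 also shares 355 exonic bases with Gm10252 on the opposite strand, which had 28 counts over all libraries against 59062 for Ftl1.

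Within libraries, Fth1 stayed above Ftl1 per kilobase throughout. The log2 ratio of Fth1 to Ftl1 ran from 0.34 to 1.38 in the 12 space libraries (median 0.94) and from 0.41 to 0.94 in the 6 land libraries (median 0.71). The ranges of this heavy-to-light ratio overlapped between space and land.

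Of the uptake genes, 1 was lower in space and the transferrin receptor varied too much to call. Tfrc, the receptor for iron-loaded transferrin, is ENSMUSG00000022797 (chr16:32608920-32632794, plus strand). Its level was 153, 78.4 and 236 CPM in space without gravity, and 176, 150 and 25.6 CPM there with nanoceria. With gravity it was 245, 170 and 50.4 CPM, and with nanoceria 230 and 128 CPM, with no count in the smallest library. On land it was 37.8, 24.3 and 341 CPM, and with nanoceria 26.3, 64.9 and 9.11 CPM. Land without nanoceria library 3, at 341 CPM, was the highest of all 18. The 6 land libraries ran from 9.11 to 341 CPM, which covers the range of the 11 larger space libraries (25.6 to 245 CPM). The difference of both space regimes from land was 1.04 ± 0.70 on the log2 scale and did not pass (edgeR adjusted p = 0.308). Without that land library it was 2.10 (edgeR adjusted p = 0.0531), and limma-voom with quality weights called Tfrc higher in space at 1.88 (adjusted p = 0.0412).

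Steap3, the endosomal ferrireductase that makes transferrin-borne iron ready for transport, is ENSMUSG00000026389 (chr1:120190757-120272705, minus strand). It was scarce, at 4 to 57 counts in the 17 larger libraries. Space libraries other than the smallest held 1.35 to 3.52 CPM (median 1.89, n = 11) and land libraries 2.63 to 18.6 CPM (median 5.40, n = 6). The highest value, 18.6 CPM, was land with nanoceria library 3, and the ranges overlapped through 2 land libraries at 2.63 and 3.01 CPM. Averaged over both space regimes, Steap3 fell by 1.57 ± 0.40 relative to land (2.97-fold lower; edgeR adjusted p = 0.0148). It was called in 17 of the 18 fits that left out 1 library, the exception being without land with nanoceria library 3, where it was −1.0 (edgeR adjusted p = 0.0878).

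Slc11a2, the divalent metal transporter that moves reduced iron into the cytosol, is ENSMUSG00000023030 (chr15:100387898-100425072, minus strand). Space libraries other than the smallest ranged from 12.3 to 86.6 CPM (median 20.9) and land libraries from 2.93 to 18.1 CPM (median 13.6). The 86.6 CPM belonged to space without gravity library 1, and the next highest library held 28.5 CPM. The difference of both space regimes from land was 1.00 ± 0.46 on the log2 scale and did not pass (edgeR adjusted p = 0.137). Without space without gravity library 1 it was 0.75 (edgeR adjusted p = 0.241). Slc11a2 shares 402 exonic bases with Gm5475 on the opposite strand, which had 43 counts in all against 2242.

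Slc40a1, the exporter ferroportin, is ENSMUSG00000025993 (chr1:45908068-45926523, minus strand) and was the scarcest member. Its level was 1.00, 1.68 and 0.713 CPM in space without gravity, and 0.728, 1.86 and 2.03 CPM there with nanoceria. With gravity it was 1.55, 0.859 and 0.988 CPM, and with nanoceria 1.66 CPM in library 1. Library 2 of that class and the smallest library had 0 counts, which allows up to 0.478 CPM in library 2 and 35.7 CPM in the smallest. On land it was 1.40, 4.35 and 2.96 CPM, and with nanoceria 2.96, 1.00 and 38.1 CPM. That last library, land with nanoceria library 3, held 117 of the 268 counts of the gene in all libraries. In both space regimes against land, Slc40a1 fell by 2.45 ± 0.64 on the log2 scale (edgeR adjusted p = 0.0171). Without land with nanoceria library 3 the difference was −1.03 and did not pass (edgeR adjusted p = 0.255), so the call rests on that library. Without space with gravity and nanoceria library 1 the difference was −3.78, so its size depends on single libraries in both directions. With limma-voom it was −1.39 (adjusted p = 0.120). With the share of the 6 most abundant entries as a covariate, Slc40a1 was −2.97 (edgeR adjusted p = 0.248) and Steap3 −1.50 (edgeR adjusted p = 0.345).

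The same library stands out for Steap3, Tfrc and Slc11a2 as well. Land with nanoceria library 3 had the highest Slc40a1 and Steap3 and the lowest Tfrc (9.11 CPM) and Slc11a2 (2.93 CPM) of the 17 larger libraries. Its Fth1 (1453 CPM) and Ftl1 (1267 CPM) were within the range of the other land libraries. In it the 6 most abundant entries took 64.1% of the counts and mitochondrial genes 1.45% of the rest. Land without nanoceria library 3, which had the highest Tfrc, held nearly the same mitochondrial share (1.44%). The part of these shares in the levels was not tested.

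**Figure D2:**
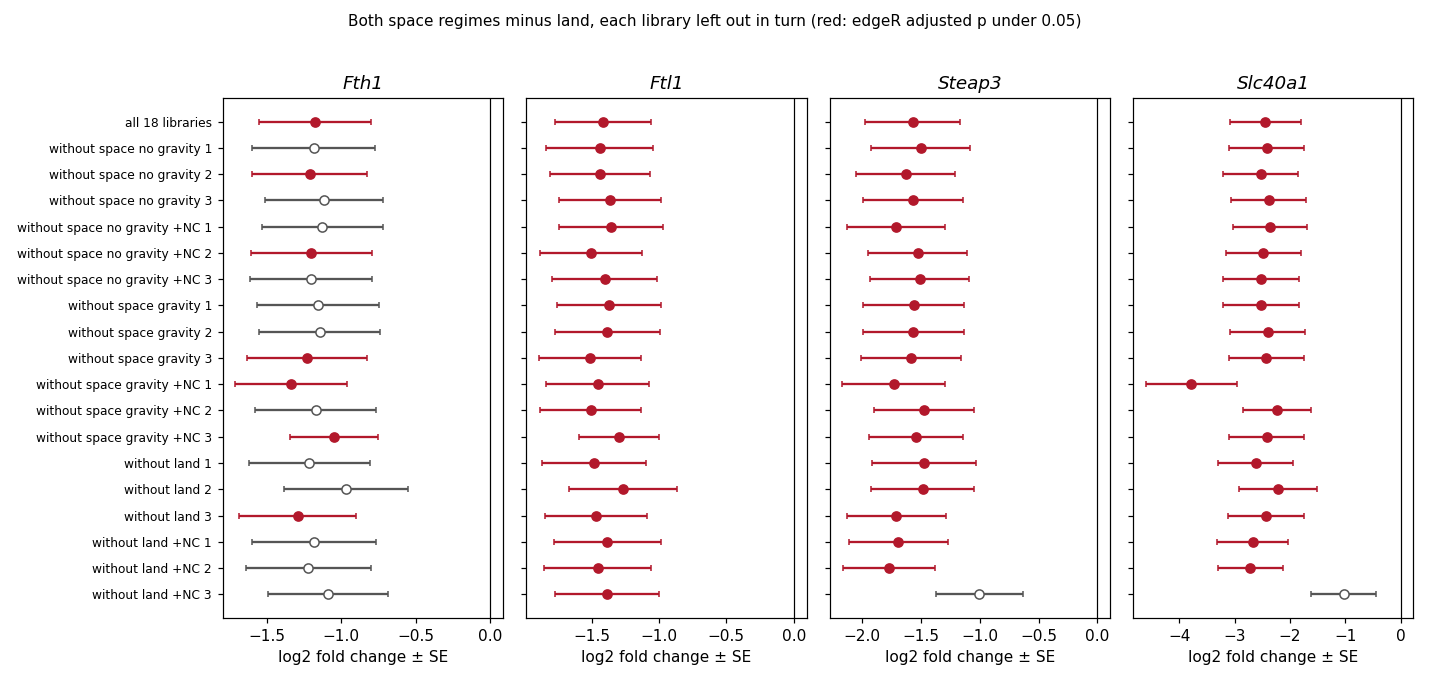
Log2 difference of both space regimes from land, with its SE, for the 4 members called, with all 18 libraries and with each left out in turn; red points have an edgeR adjusted p under 0.05. Ftl1 stays red throughout, Fth1 in 6 of the 18 fits, and Steap3 and Slc40a1 in 17, turning grey without land with nanoceria library 3.

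Pcbp1, a chaperone that hands iron to ferritin and also binds RNA, is ENSMUSG00000051695 (chr6:86524492-86526321, minus strand), and shares 75 exonic bases with 1600020E01Rik (382 counts against 6274). The 11 larger space libraries held 35.2 to 71.6 CPM and land libraries 15.4 to 116 CPM. Both extremes were land libraries without nanoceria, and the difference from land of −0.54 ± 0.34 did not pass (edgeR adjusted p = 0.274). Ncoa4, the receptor that delivers ferritin to lysosomes for iron release, is ENSMUSG00000056234 (chr14:32159865-32179855, plus strand) and ranged from 0.983 to 10.9 CPM in the 17 larger libraries. Its highest value, 10.9 CPM, came from space with gravity library 2, and the difference from land, 0.65 ± 0.43, did not pass (edgeR adjusted p = 0.307).

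The messengers of the iron regulatory proteins kept low levels in all classes. Aco1, the cytosolic aconitase that becomes iron regulatory protein 1 when it loses its cluster, is ENSMUSG00000028405 (chr4:40143081-40198338, plus strand). It ranged from 3.74 to 14.8 CPM over the 17 larger libraries, and its difference of both space regimes from land, −0.39 ± 0.32, did not pass (edgeR adjusted p = 0.408). Ireb2, iron regulatory protein 2, which is degraded when iron is plentiful, is ENSMUSG00000032293 (chr9:54863789-54912530, plus strand). It ranged from 4.44 to 16.2 CPM, and its difference of 0.50 ± 0.34 did not pass (edgeR adjusted p = 0.312). Within libraries, the log2 ratio of Ireb2 to Aco1 per kilobase ran from −1.61 to 0.51 in space (median −0.37, n = 11) and from −2.25 to 0.06 on land (median −1.33, n = 6). In space without gravity its 6 values lay between −0.49 and 0.51, and in space with gravity between −1.61 and −0.37. Those values are a description and were not tested.

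Counting over all 10 members, 4 fell and none rose in both space regimes against land, with 17.8% of all 11558 genes tested called and 10.3% called lower. At an unadjusted p under 0.05 the members numbered 5, with Slc11a2 the fifth and higher, against 33.2% of all genes. The median difference of the members was −0.47, beside −0.03 for all genes. Fitted values were lower in 6 members and higher in 4. The 3 members with a hairpin before the coding sequence (Fth1, Ftl1, Slc40a1) fell, and so did Steap3, which held no match. The calls of Fth1, Slc40a1 and Steap3 depended on single libraries, as given above. Tfrc, with its hairpins behind the coding sequence, had a higher value that did not pass. Slc11a2, also higher, held no match under the rule used, which does not show that its messenger lacks a hairpin. Any part of the hairpins in these messenger levels was not tested.

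Split by space regime, calls were fewer. In space with gravity against land 3 members fell: Ftl1 (−1.54 ± 0.44, edgeR adjusted p = 0.0285), Steap3 (−1.66 ± 0.51, adjusted p = 0.0374) and Slc40a1 (−2.64 ± 0.84, adjusted p = 0.0436). Of all genes 14% were called in that comparison and 6.74% were called lower, and at an unadjusted p under 0.05 the members numbered 4 against 31.9% of all genes. Fth1 was the fourth, at −1.37 ± 0.46 (edgeR adjusted p = 0.0529). Fitting only the 4 groups compared called no member. Leaving out 1 library gave 0 calls without library 1 or 2 of space with gravity or library 2 of land (all without nanoceria). It gave 1 call without library 3 of space with gravity, library 1 of land, library 1 or 2 of space with gravity and nanoceria, or library 3 of land with nanoceria, where Slc40a1 was −1.22 (edgeR adjusted p = 0.260). Without library 1 of space with gravity and nanoceria Slc40a1 was −5.31 (edgeR adjusted p = 0.0408). In space without gravity against land edgeR called none of the 10 (5.25% of all genes), with 5 at an unadjusted p under 0.05 (24.7% of all genes). DESeq2 called 4 there and limma-voom 1, and edgeR called 1 without the smallest library and 2 without land with nanoceria library 2. The percentages given are from the main edgeR fit. Over the settings used, fits leaving out each library in turn aside, 38 to 1524 genes were called in this comparison. The member counts of those fits therefore have unlike backgrounds. The edgeR differences were −1.29 ± 0.44 for Ftl1 (adjusted p = 0.0819), −1.48 ± 0.48 for Steap3 (adjusted p = 0.0738), −2.26 ± 0.78 for Slc40a1 (adjusted p = 0.0901), −0.98 ± 0.45 for Fth1 (adjusted p = 0.188) and 1.35 ± 0.51 for Slc11a2 (adjusted p = 0.116). These comparisons share the land libraries, and the direct test of the 2 space regimes is given below.

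With each nanoceria level taken alone, at 3 libraries against 3, edgeR called no member in any of the 4 space-land comparisons. For space with gravity and no nanoceria, 1 member had an unadjusted p under 0.05 (Ncoa4, 1.48 ± 0.68, higher), with 0% of genes called after adjustment and 21.5% before; DESeq2 called 1 member and limma-voom 2. With nanoceria the members numbered 4 (Ftl1, Fth1, Steap3 and Slc40a1, all lower), with 0.00865% of genes called after adjustment and 20.5% before; DESeq2 called 3 and limma-voom 0. For space without gravity and no nanoceria, 1 member had an unadjusted p under 0.05 (Slc11a2, 1.76 ± 0.73, higher), with 0% and 13% of genes, and neither other tool called a member. With nanoceria they numbered 3 (Ftl1, Steap3 and Slc40a1, all lower), with 0.0433% and 19.2% of genes. There DESeq2 called 3 and limma-voom 0. All these percentages are from the main edgeR fit. Over the settings used, all genes called with gravity ran from 0 to 2382 without and 0 to 1158 with nanoceria. Without gravity they ran from 0 to 498 and 0 to 1118. Ftl1 was the 1 member whose space and land libraries did not overlap in any of the 4 pairs of classes. Such separation was not counted over all genes, so it is not shown to be particular to Ftl1.

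**Figure D3:**
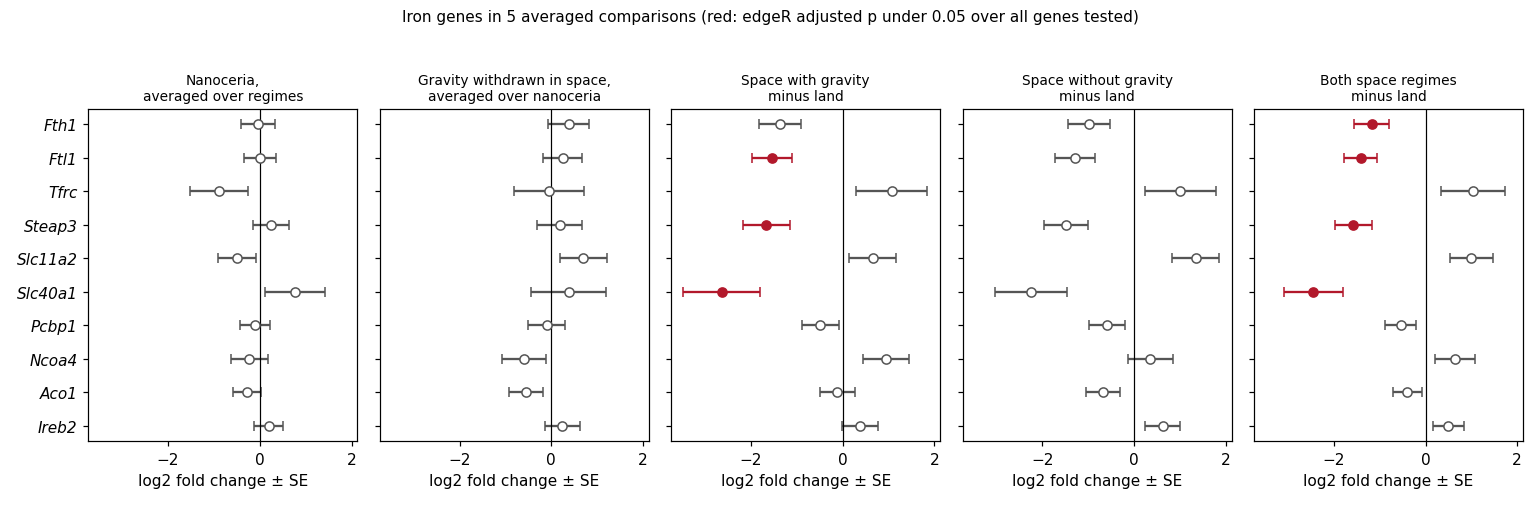
Log2 difference with its SE for each iron gene in 5 averaged comparisons; red points have an edgeR adjusted p under 0.05 over all genes tested. Red points appear only in the space-land panels, with 3 members in space with gravity and 4 in both space regimes together, all to the left of 0.

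Withdrawing gravity in space moved no iron gene past the test. Averaged over nanoceria levels, edgeR called 0 of 10 members (0% of all genes), with 0 at an unadjusted p under 0.05 (5.85% of all genes), and DESeq2 and limma-voom called 0. Ftl1 differed by 0.25 ± 0.43, Fth1 by 0.38 ± 0.45, Tfrc by −0.06 ± 0.76 and Slc40a1 by 0.38 ± 0.81 on the log2 scale, without gravity minus with gravity. The smallest p belonged to Aco1, at −0.55 ± 0.38 (edgeR adjusted p = 0.943). Its 3 libraries without gravity and without nanoceria (3.74 to 5.62 CPM) all lay below the 3 with gravity (5.74 to 14.8 CPM). With nanoceria its ranges overlapped, at 5.08 to 5.57 CPM without gravity and 5.26 to 7.52 CPM in the 2 larger libraries with gravity. Such separation was not counted over all genes. Without nanoceria 0 members were called (0% of genes) and 0 had an unadjusted p under 0.05 (4.05% of genes). With nanoceria the same held (0% and 5.78%). With SEs of 0.76 for Tfrc and 0.81 for Slc40a1, modest differences in these members were not detectable.

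Nanoceria likewise moved no iron gene past the test. Averaged over the 3 regimes, edgeR, DESeq2 and limma-voom called 0 of 10 members, with 0 at an unadjusted p under 0.05, beside 0% and 6.54% of all genes. Both ferritins lay near 0, Ftl1 at 0.01 ± 0.35 and Fth1 at −0.04 ± 0.37. Tfrc was at −0.90 ± 0.63 (edgeR adjusted p = 0.816), and at −0.19 without land without nanoceria library 3. In space without gravity no member was called (0% of genes) or had an unadjusted p under 0.05 (3.97%). The counts were also 0 in space with gravity (0% and 4.46% of genes). On land 0 were called (0%) and 1 had an unadjusted p under 0.05 (10.2% of genes), Slc40a1 at 2.28 ± 1.07 (edgeR adjusted p = 0.487), which rests on land with nanoceria library 3. Summed myoblast markers on land were 99.0 to 135 CPM without and 228 to 525 CPM with nanoceria; their part was not tested. Tfrc on land was −2.0 ± 1.12 with nanoceria (edgeR adjusted p = 0.559), with library 3 without nanoceria at 341 CPM against 24.3 and 37.8 CPM in its replicates. The test of whether the nanoceria difference varies between regimes called 0 members, with 0 at an unadjusted p under 0.05, beside 0% and 6.14% of all genes; the smallest adjusted p was 0.908, for Slc40a1.

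Set against each other in the same library, the receptor and the store gave a ratio that was lower on land by its median, with overlapping ranges. Per kilobase, the log2 ratio of Tfrc to Fth1 was −4.81, −6.02 and −3.47 in space without gravity, and −4.12, −5.04 and −7.58 there with nanoceria. It was −3.69, −4.12 and −6.52 in space with gravity, and −4.39 and −4.50 with nanoceria. On land it was −7.52, −8.89 and −3.89, and with nanoceria −8.25, −6.81 and −10.15. This ratio does not depend on how libraries are scaled to each other. The median was −4.50 in 11 space libraries and −7.88 in 6 land libraries; 3 land libraries (−7.52, −6.81 and −3.89) lay within the range of the space values, and 9 of the 11 space libraries within that of the land values. Over the 17 larger libraries the correlation of log2 CPM was −0.77 between Tfrc and Fth1 and 0.91 between Fth1 and Ftl1. These points share the scaling of each library, and the correlations are a description.

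**Figure D4:**
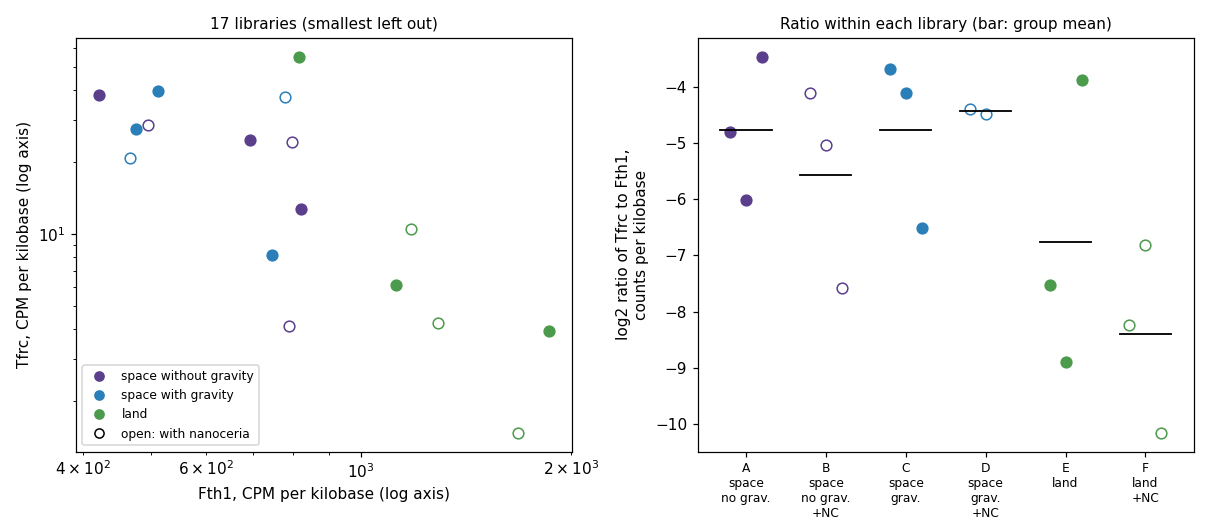
Left, Tfrc against Fth1 in CPM per kilobase on log axes for the 17 larger libraries, coloured by regime, with open points for nanoceria; right, the log2 ratio of Tfrc to Fth1 per kilobase in each library by class, with class means as bars. Land libraries lie mostly to the lower right, with 1 at high Tfrc, and the ratio runs from −10.15 to −3.47.

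The genes whose pattern over the 17 larger libraries was most like that of a member were taken from 2319 well-expressed genes by Pearson correlation of log2 CPM. For Fth1 they were Ctsb, which encodes the lysosomal protease cathepsin B (0.96), Psap, the precursor of the saposins (0.92), and Ftl1 (0.91). For Ftl1 they were Psap (0.93), Ctsb (0.91) and Fth1 (0.91). The same pair led both lists, which are not independent because Fth1 and Ftl1 correlated at 0.91. All values here are the highest among the 2319 candidates. For Tfrc they were Synj2bp (0.87), Gm47111 (0.83) and Samd4 (0.79). For Slc40a1 they were Prnp (0.84), Cpe (0.83) and App (0.83).

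Other iron genes, from lists of transport and regulation, iron-sulfur cluster assembly and heme synthesis, were called in small numbers. In both space regimes against land, where 17.8% of all genes were called and 10.3% called lower, 1 of 13 tested transport genes fell, Cp, the ferroxidase ceruloplasmin, by 1.10 ± 0.33 (edgeR adjusted p = 0.0281), and none rose. Of 20 cluster assembly genes 3 fell and none rose, with edgeR adjusted p of 0.0171 for Bola3 (−1.27 ± 0.34), 0.0189 for Cisd1 (−1.02 ± 0.28) and 0.0251 for Cisd2 (−1.18 ± 0.34). Bola3 helps load clusters in mitochondria, and Cisd1 and Cisd2 encode membrane proteins that carry a cluster. Of 7 heme synthesis genes 1 fell, Uros, at −1.43 ± 0.43 (edgeR adjusted p = 0.0306). Each of the 5 lost its call without land with nanoceria library 3 (adjusted p 0.0527 to 0.103), and all but Cp also without land without nanoceria library 1. Cp and Cisd1 lost it without library 2 of that class and Cp without its library 3, and Uros lost it without any of 3 further libraries (land with nanoceria 1, space with gravity and nanoceria 1, and space without gravity 3). At an unadjusted p under 0.05 in edgeR there were 2 transport, 7 cluster assembly and 1 heme synthesis genes, against 33.2% of all genes. Of these, 1 transport and 2 cluster assembly genes were higher in space. The medians were 0.37, −0.38 and −0.48 on the log2 scale for the 3 lists, beside −0.03 for all genes. In space with gravity against land Cp (−1.49 ± 0.40), Bola3 (−1.34 ± 0.42) and Cisd1 (−1.05 ± 0.34) fell, with edgeR adjusted p of 0.0235, 0.0425 and 0.0491, and no heme synthesis gene was called. They were called in 16, 6 and 3 of the 18 fits that left out 1 library. Uros was the heme gene nearest to it, at −1.41 ± 0.54 (edgeR adjusted p = 0.0826).

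In space without gravity against land edgeR called none of the genes of these 3 lists, and 2 of 13, 7 of 20 and 1 of 7 had an unadjusted p under 0.05, beside 5.25% and 24.7% of all genes. The smallest p in each list belonged to Slc39a14, a metal importer (1.17 ± 0.48, edgeR adjusted p = 0.140), Cisd1 (−1.0 ± 0.33, adjusted p = 0.0738) and Uros (−1.45 ± 0.52, adjusted p = 0.0966). For nanoceria none was called and 0, 0 and 1 had an unadjusted p under 0.05, beside 0% and 6.54% of all genes, the smallest belonging to Cp among the transport genes (−0.62 ± 0.32, edgeR adjusted p = 0.766) and Fech among the heme genes (−0.72 ± 0.32, adjusted p = 0.752). For withdrawn gravity the counts were again none and 0, 0 and 1, beside 0% and 5.85% of all genes, with Cp (0.78 ± 0.40, edgeR adjusted p = 0.891), Iba57 (−0.87 ± 0.61, adjusted p = 0.947) and Alas1 (−0.95 ± 0.40, adjusted p = 0.784). Of the ferritin pseudogenes, 3 of 5 were tested, and none was called for nanoceria or withdrawn gravity, where Ftl1-ps2 had the smallest p (0.55, edgeR adjusted p = 0.874, and 0.42, adjusted p = 1.0).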

How the data were processed

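Raw read counts per Ensembl gene were deposited for the 18 libraries of polyadenylated RNA, 1 table each, with gene coordinates and summed exon length per the file headers; small-RNA samples of the series are not analysed here. Per the submitters' processing notes, the tools were CASAVA, Trimmomatic 0.36.29, STAR, Subread and featureCounts on GRCm38.p6; strand and multi-mapping settings are not given in the sources used here. Groups came from the sample labels, and replicate numbers follow the order of the records and pair nothing.

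Counts were tested as deposited with edgeR 4.0.16 in R 4.3.3 (limma 3.58.1): filterByExpr left 11558 genes, libraries were scaled by TMM, and 1 robust quasi-likelihood model over the 6 groups gave each contrast (12 residual degrees of freedom, common biological coefficient of variation 0.659). The SE is the log2 fold change divided by the root of F. P-values were adjusted by Benjamini-Hochberg over all genes tested, with a threshold of 0.05. CPM uses TMM-scaled library sizes, and levels between genes are compared only per kilobase. Total counts limit the precision, and a level under 3 counts is below what a library can show. That floor covers counting error only, whereas SDs and SEs hold the spread between libraries.

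Hairpins were searched in GENCODE transcripts with coding annotation, and their coordinates were checked against the GRCm38 genome. Alternatives were DESeq2 1.42.0 (test, and its size factors in edgeR), limma-voom with quality weights, other filters, other sets of samples, the 6 most abundant genes removed or their log2 share as a covariate, ferritin pseudogene counts added, and each library left out. Leaving out the smallest library and land with nanoceria library 3 together was chosen after seeing the data. The scripts were tested on simulated data. All members are named; of the other iron lists, genes past the threshold in an averaged comparison (at most 3 a direction) or the gene with the smallest p (1 such gene is not reported here); for Tfrc, Fth1, Ftl1 and Slc40a1, the 3 genes most alike (prior count 2, average log2 CPM of at least 5). The members and lists were chosen with earlier results of these data known.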

Additional observations from a re-analysis of the deposited data

How the results depend on the processing

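Of the 599 gene results recomputed under alternatives, 514 kept direction and side of the threshold, 52 lost their call, 15 gained one and 18 changed sign; leaving out 1 library in turn, the figures were 973, 92, 4 and 29 of 1098. Most of these gene results were not called in the main fit, so for them keeping the side of the threshold meant staying uncalled. Only the results called in the main fit could lose a call, so the totals do not measure how steady the calls were. No paired analysis was possible because replicate numbers only follow the order of the records. The cause of a change was not tested where none is given. For both space regimes against land, 4 members were called; with no filter on low counts 2, with a mean of at least 50 counts 2 (6 members then tested), with the dominant share as covariate 0, without the smallest library and land with nanoceria library 3 together 2 (Ftl1 and Fth1), and 1 to 4 with 1 library left out. For space with gravity against land the 3 calls became 1 with no filter, 0 with the covariate, 0 with only the groups compared, 1 with both libraries left out and 0 to 3 with 1 left out; without nanoceria DESeq2 called 1 and limma-voom 2, and with nanoceria DESeq2 called 3 and the unfiltered fit 1. For space without gravity against land, none called before, DESeq2 size factors gave 2, DESeq2 4, limma-voom 1, no filter 1, the mean of 50 counts 1, the fit without the smallest library 1, and 0 to 2 with 1 left out; with nanoceria DESeq2 gave 3 and no filter 1. Over all genes, the 2059 calls in both space regimes against land (873 higher, 1186 lower) became 2656 with DESeq2 size factors (640 higher, 2016 lower), which moved the median of all genes from −0.03 to −0.33, and 4 with the covariate; space with gravity gave 1613 and space without gravity 607 calls, against 2 and 38 with the covariate. Over these settings, fits leaving out each library in turn aside, all genes called ran from 4 to 2983 in both space regimes against land. They ran from 2 to 2691 for space with gravity and from 38 to 1524 for space without gravity. The counts of members called under each setting therefore have unlike backgrounds and are not results about the members alone. Signs turned only in differences that passed no test. For nanoceria these were Fth1 without the smallest library (0.12), Ftl1 with limma-voom (−0.22), no filter (−0.014) and the covariate (−0.047), and Slc40a1 with limma-voom (−0.095); for withdrawn gravity, Tfrc with DESeq2 size factors (0.011), DESeq2 (0.031) and the covariate (0.85), Pcbp1 with DESeq2 size factors (0.0071) and DESeq2 (0.0012), and Fth1 (−0.35) and Ftl1 (−0.58) with the covariate. Against land, with the covariate, Tfrc was −0.15, Pcbp1 0.65 and Aco1 0.63 for space with gravity, and Pcbp1 0.24 and Aco1 0.13 for both regimes; Aco1 was 0.012 for space with gravity with both libraries left out. With 1 library left out, the nanoceria difference ran from −0.11 to 0.40 for Steap3, −0.25 to 0.12 for Fth1, −0.11 to 0.16 for Ftl1, −0.26 to 0.088 for Pcbp1, −0.35 to 0.091 for Ncoa4 and −1.01 to 1.06 for Slc40a1. Likewise withdrawn gravity ran from −0.29 to 0.33 for Tfrc, −0.10 to 0.50 for Steap3, −0.21 to 0.011 for Pcbp1 and −0.043 to 3.06 for Slc40a1, and space with gravity against land from −0.35 to 0.014 for Aco1. Class mean levels were recomputed outside the 6 most abundant entries without TMM, which divides by fewer counts, or without the smallest library. Of these, 20 stayed within 1 SD of the main value and 50 moved further. For Tfrc, Slc11a2, Aco1 and Ireb2 the mean in untreated space with gravity was above untreated land with TMM. It was below untreated land on the other scale. The remaining members kept their order there. Depth limits Slc40a1, Steap3 and Ncoa4 most.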
